A study of Mus musculus with 6 samples.

Results

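The NADPH oxidases are membrane enzymes that pass electrons from NADPH to oxygen and make superoxide or hydrogen peroxide. Each has a catalytic NOX subunit that sits in the membrane, usually beside the small subunit p22phox, and most need cytosolic partners that organize and activate it. The NOX1 system of epithelia uses the organizer NOXO1 and the activator NOXA1, while the phagocyte oxidase of neutrophils and macrophages uses gp91phox with partners that include p47phox, p40phox and the GTPase RAC2. Its activity gives phagocytes their oxidative burst. NOX4, described in fibroblasts, smooth muscle and endothelium, needs p22phox but no organizer and is active without a stimulus.

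The genes described are 9 subunits of these enzymes, Noxo1, Noxa1, Nox1, Nox4, Cyba, Cybb, Ncf1, Ncf4 and Rac2, out of 18193 genes named by a probe set of the array. They were chosen by their role with the genotype difference of these arrays already in view, so their differences between the genotypes are given as a description and not as a test. Probe sets naming 1 gene alone were found for 7 of the 9, and there were 13 such probe sets. Nox1 and Noxa1 had no probe set named for them here and were not analysed here. All 7 genes had at least 1 probe set past the filter on dim signals, a mean log2 signal over the 6 arrays of 8.08 (a signal of 271), as 11 of the 13 probe sets did.

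RNA came from alveolar type II cells, the surfactant-making cells of the lung, isolated from 2-month-old mice. The Insig1-deleted group carried the SFTPC-rtTA and (tetO)7CMV-Cre transgenes with Insig1 flox/flox and Insig2-/-, and had doxycycline in the embryo (E6.5 through E12.5). Control mice were also Insig1 flox/flox and Insig2-/- but lacked either the rtTA or the Cre transgene, and the same label text, doxycycline included, stands on their samples. Each of the 6 arrays held RNA pooled from an unstated number of animals, and the 3 pools per genotype are described as independent. INSIG1 and INSIG2 restrain the SREBP transcription factors of sterol and fatty acid synthesis, and both groups lacked INSIG2. The SFTPC promoter is active in lung epithelium, so the transgenes do not address leukocytes directly. No group had the complete Cre system with Insig1 intact, and an effect of the Cre system cannot be told apart from loss of Insig1.

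Insig1 averaged 1482 ± 251 in deleted pools and 2862 ± 519.5 in control pools (SD, n = 3 each, limma adjusted p = 0.068), and no source used here says whether its probe set falls within the floxed region. Insig2, lost in both genotypes, averaged 1981 ± 109.9 in deleted pools and 2249 ± 392.1 in control pools on its brightest probe set. Its log2 difference was -0.17 there, and -0.23 (no overlap) and -0.26 (overlap) on its other probe sets. Insig2 signals therefore do not check the deletion. The 10 type II cell markers past the filter summed to between 706164 and 830280 in deleted pools and between 711857 and 846363 in control pools, so the labelled cell type was present in each pool. Macrophage markers were measured in every pool too. On the first principal component the deleted pools lay at 12.3 to 18.7 and the control pools at -12.9, 3.35 and -39.1, the last being control pool 3, which stood apart, and the members' differences are given without it as well.

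Of the 7 oxidase genes, 6 were higher in Insig1-deleted pools and Nox4 was lower. The log2 fold changes on the brightest probe set of each gene ran from -0.39 (Nox4) to 3.15 (Noxo1), with a median of 0.71 (a fold here is the ratio of geometric means, 2 to the power of the log2 value, and not of the arithmetic means printed with their SD), where the median over all 12952 genes tested was -0.005. In 5 genes (Noxo1, Cyba, Cybb, Ncf1 and Ncf4) every deleted pool lay above every control pool, which held for 9.2% of all genes tested, and in Nox4 every deleted pool lay below, which held for 7.9%. The fit across all genes placed 81 genes higher, or 0.625%, and 3 lower, or 0.0232%, at an adjusted p under 0.05, which makes 0.649% in either direction. Noxo1, Cyba and Cybb were among the 81. Since the members were picked with this contrast known, nothing is read from these counts. In RNA of whole isolates, fewer cells of a type and less RNA per cell cannot be told apart, and this holds for every gene described.

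**Figure D1:**
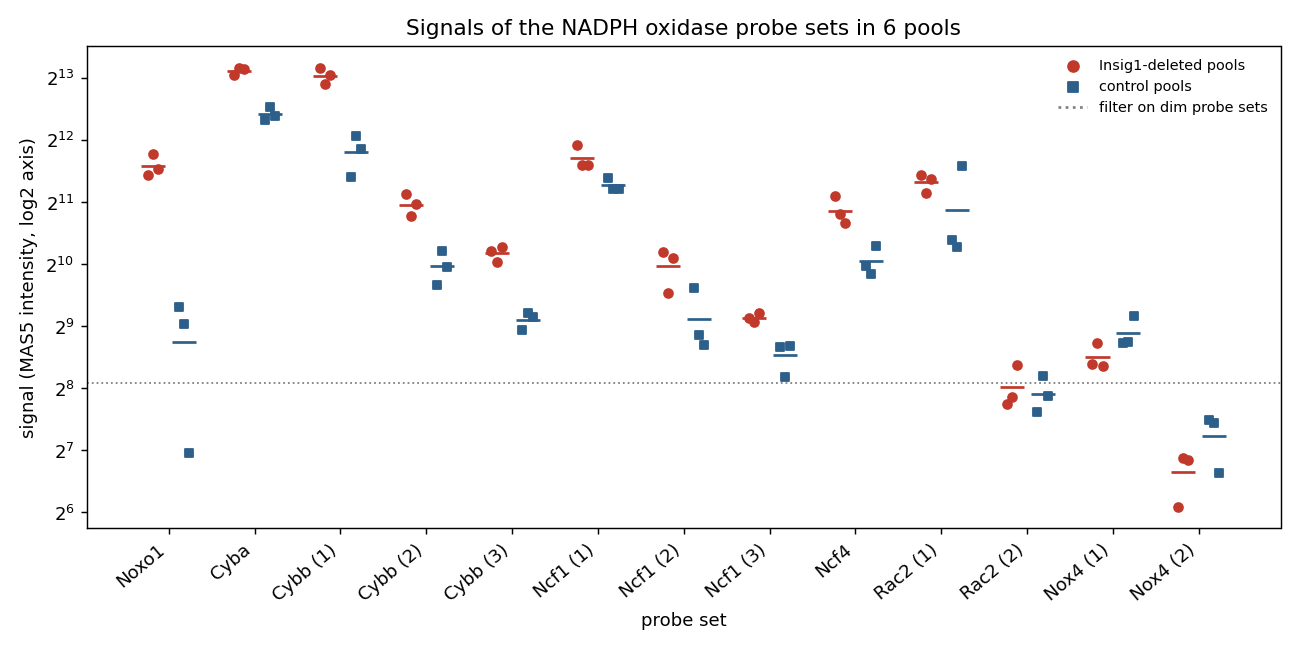
Signals (MAS5 intensity, log2 axis) of the 13 oxidase probe sets in each Insig1-deleted pool (red circles) and control pool (blue squares), with the arithmetic mean of each group as a bar and the filter on dim probe sets (271) as a dotted line. Signals are to be compared within a probe set only: the 3 deleted pools of Noxo1 lie between 2769.6 and 3506.2 and its control pools between 124 and 637.5, whereas control pool 3 of the brighter Rac2 probe set (1) lies above its deleted pools.

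Noxo1, the organizer that holds the NOX1 complex together at the membrane, differed most. Its single probe set read 2769.6, 3506.2 and 2976.9 in the deleted pools and 637.5, 524 and 124 in the control pools. All 3 deleted pools were high and close together, and the control pools were low and spread widely. The means were 3084 ± 379.8 in deleted pools and 428.5 ± 269.7 in control pools (SD, n = 3 each), an 8.87-fold difference (log2 3.15 ± 0.51, SE). Among the 12952 genes tested it ranked 2nd by the size of the increase. Control pool 3 widened the difference, which was 5.31-fold (log2 2.41) against the other control pools, whose mean signal was 580.8. Even so, the gap between the lowest deleted and the highest control pool was 2.12 on the log2 scale, and the 3 deleted pools spanned 0.34.

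Cyba encodes p22phox, the membrane partner that NOX1, gp91phox and NOX4 all use. It read 8538, 9219.7 and 9076.4 in the deleted pools and 5127.5, 5957.5 and 5354.7 in the control pools. The groups did not overlap and the pools of each group were close together, with a log2 range of 0.11 in deleted and 0.22 in control pools. Deleted pools averaged 8945 ± 359 and control pools 5479.9 ± 429 (SD, n = 3 each), a 1.63-fold difference (log2 0.71 ± 0.11, SE). Without control pool 3 it was 1.62-fold. Of the members Cyba thus had the tightest standard error, and it belongs to both oxidase systems, so its signal cannot be assigned to either.

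The starts of these genes are shown as a description, and a link between their sequence and the fold changes was not tested. For Noxo1, Cyba and Cybb the windows from 250 bases before to 50 bases after the RefSeq start (GRCm38.p6) lie at chr17:24695984-24696283 on the + strand, at chr8:122432891-122433190 on the - strand and at chrX:9469275-9469574 on the - strand. They are printed 5′ to 3′ on the gene's strand, and capitals mark matches to the motifs described after them.

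Noxo1: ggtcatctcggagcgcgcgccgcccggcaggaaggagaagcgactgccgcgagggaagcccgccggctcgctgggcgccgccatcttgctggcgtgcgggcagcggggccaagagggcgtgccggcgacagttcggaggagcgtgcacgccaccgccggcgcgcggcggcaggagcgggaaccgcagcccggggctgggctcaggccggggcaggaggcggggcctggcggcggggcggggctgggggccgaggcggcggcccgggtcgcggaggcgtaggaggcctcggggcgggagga

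Cyba: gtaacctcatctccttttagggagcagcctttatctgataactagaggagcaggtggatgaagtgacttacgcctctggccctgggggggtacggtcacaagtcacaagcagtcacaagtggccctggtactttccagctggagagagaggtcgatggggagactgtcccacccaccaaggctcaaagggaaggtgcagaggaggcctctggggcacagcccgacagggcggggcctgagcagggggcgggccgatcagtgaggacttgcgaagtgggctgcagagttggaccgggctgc

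Cybb: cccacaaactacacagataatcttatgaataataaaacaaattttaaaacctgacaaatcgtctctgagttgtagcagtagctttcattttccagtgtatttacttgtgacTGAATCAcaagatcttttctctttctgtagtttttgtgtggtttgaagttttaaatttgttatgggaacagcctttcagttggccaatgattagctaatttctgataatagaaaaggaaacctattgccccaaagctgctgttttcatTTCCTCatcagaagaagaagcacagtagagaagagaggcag

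RefSeq windows were given for 7 of the 9 subunits, Nox1 and Noxa1 included, and for neither Ncf4 nor Rac2. The Noxo1 window was GC-rich, with 80.3% G and C and 46 CpG dinucleotides, and the Cybb window was AT-rich, with 35.3% and 1 CpG. Cyba had 60.7% and 9 CpG, and the median over 32851 windows was 52.7%. Both strands were searched for the core GAGGAA bound by PU.1, a myeloid transcription factor, for an NF-kB core GGNNTTTCC, for the core TCACNCCAC of the sterol regulatory element and for the AP-1 site TGANTCA. In all windows these were found in 28.28%, 5.82%, 1.24% and 7.81%. The Cybb window held a PU.1 core on the opposite strand at bases 260 to 265 of the window, just past the start used, and an AP-1 site at bases 112 to 118. The annotated Cybb locus (chrX:9435252-9487766) reaches further upstream than its window, as do those of Nox1 and Nox4. Other starts were not searched. The Nox1 window held a PU.1 core and an NF-kB core, and Noxa1 held an NF-kB core. None of these letters stood in the windows of Noxo1, Cyba, Ncf1 and Nox4, and no window of the 7 held the sterol element core. A match is a description of the sequence and not a bound site.

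Cybb encodes gp91phox, the catalytic core of the phagocyte oxidase. Its brightest probe set read 9181.9, 7674.5 and 8490.1 in the deleted pools and 2720.1, 4297.6 and 3729.6 in the control pools. Every deleted pool was far above every control pool, with a gap of 0.84 on the log2 scale between the closest pools. The means were 8449 ± 755 in deleted pools and 3582 ± 799 in control pools (SD, n = 3 each), a 2.39-fold difference (log2 1.26 ± 0.17, SE). The other probe sets gave 2.01-fold (2000.4 ± 245 in deleted and 1003 ± 190.3 in control pools) and 2.12-fold (1168 ± 101 in deleted and 552 ± 51.8 in control pools), with no overlap on either. All 3 Cybb probe sets therefore showed a difference of 2-fold or slightly more, and without control pool 3 the folds were 2.46, 2.02 and 2.15.

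Ncf1 encodes p47phox, the organizer of the phagocyte oxidase and the counterpart of NOXO1. On its brightest probe set it read 3908.9, 3122.1 and 3108.2 in the deleted pools and 2692.4, 2393.2 and 2374.8 in the control pools, a 1.35-fold difference (log2 0.44 ± 0.14, SE). The groups did not overlap, although the gap between the closest pools was only 0.21 on the log2 scale. The dimmer probe sets gave larger folds with more scatter. A second probe set averaged 1008 ± 233 in deleted pools and 554 ± 200 in control pools, where the groups overlapped (1.86-fold). The third averaged 566 ± 29.6 in deleted pools and 371 ± 69.3 in control pools, with no overlap (1.54-fold). Averaged over its probe sets Ncf1 stood at a log2 fold change of 0.65 ± 0.17 (SE), beyond the spread of its pools on the brightest.

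Ncf4 encodes p40phox, which binds phosphoinositides on the phagosome and sustains oxidase activity there. It read 2197.3, 1790.9 and 1618.8 in the deleted pools and 1004.4, 918.3 and 1263.9 in the control pools. Every deleted pool was the higher, by at least 0.36 on the log2 scale. Deleted pools averaged 1869 ± 297 and control pools 1062 ± 179.9 (SD, n = 3 each), a 1.76-fold difference (log2 0.82 ± 0.18, SE), and it was 1.93-fold without control pool 3.

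Rac2, the GTPase of blood cells that activates the phagocyte oxidase, was the member whose groups overlapped on its brightest probe set. It read 2795.1, 2275 and 2649.8 in the deleted pools and 1344.8, 1240.5 and 3077.6 in the control pools. Control pool 3 had the highest signal of all 6 pools, and the other control pools had the lowest. The log2 fold change was 0.57 ± 0.31 (SE, 1.49-fold) with all pools and 0.99 (1.98-fold) without control pool 3. A second Rac2 probe set lay below the filter, at 261 ± 64.6 in deleted pools and 241 ± 49.6 in control pools, and its groups overlapped too.

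Nox4, the catalytic subunit of the constitutively active oxidase, was dim and ran the other way. Its brighter probe set read 336.7, 424.6 and 330.4 in the deleted pools and 427.8, 429.3 and 573.2 in the control pools. The groups did not overlap, but the highest deleted and the lowest control pool differed by just a few signal units. The log2 fold change was -0.39 ± 0.26 (SE) and became -0.25 without control pool 3. The other Nox4 probe set lay below the filter, at 100.4 ± 27.8 in deleted pools and 151.3 ± 44.6 in control pools, with overlap. The 8 mesenchymal markers measured, from cell types known for Nox4, had a median log2 fold change of -0.09, and the 7 endothelial markers had 0.02. No marker of either list passed the threshold (limma). At an unadjusted p under 0.05 both lists had 0, against 6.05% higher and 6.02% lower of all genes tested. The receptor gene Pdgfra stood at -0.46 (adjusted p = 0.48) and the smooth muscle gene Tagln at 0.19 (adjusted p = 0.70), and the endothelial genes Ramp2 and Emcn at -0.19 (adjusted p = 0.56) and -0.25 (adjusted p = 0.76). Mesenchymal signal summed to between 40325 and 63662 in deleted pools and between 47293 and 67570 in control pools, and endothelial signal to between 25063 and 26445 in deleted pools and between 24441 and 30313 in control pools. Their part in the Nox4 difference was not tested.

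**Figure D2:**
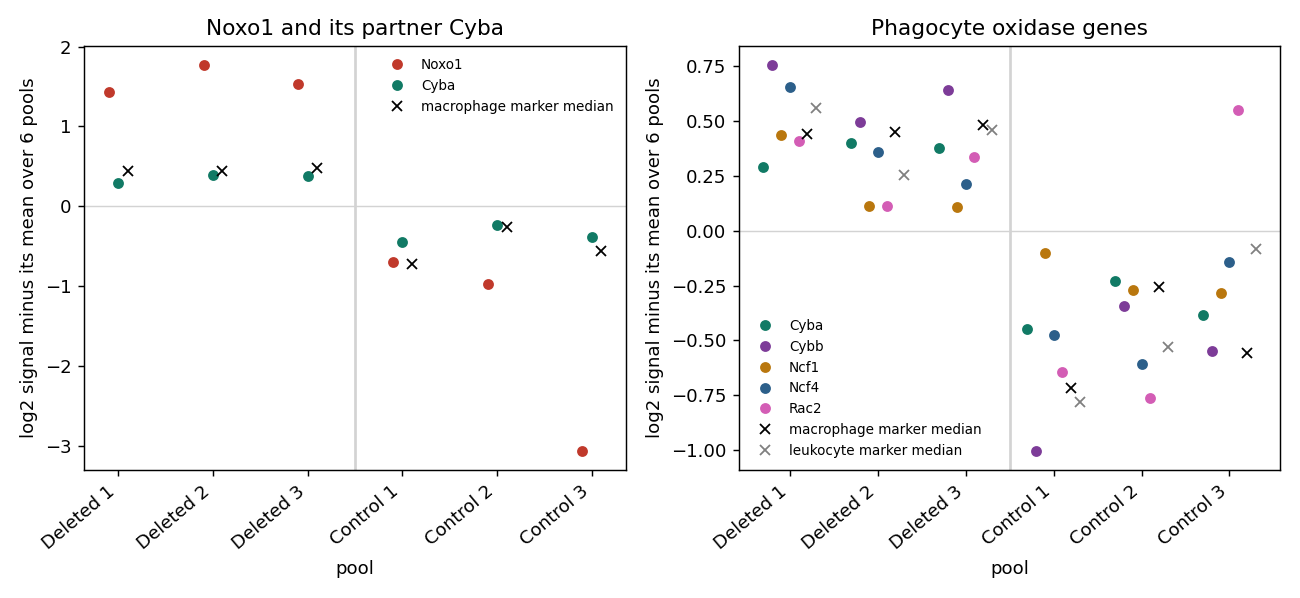
Log2 signal of each gene's brightest probe set minus its own mean over the 6 pools, for Noxo1 and Cyba (left) and for the phagocyte oxidase genes (right), with the median of 14 macrophage markers and of 6 leukocyte markers as crosses (the leukocyte median on the right only). Noxo1 sits 3.05 below its mean in control pool 3, and Rac2 sits 0.55 above its mean in the same pool, where the leukocyte marker median is -0.08 and the macrophage marker median -0.56.

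Macrophage markers were higher in deleted pools, as most phagocyte oxidase genes were. All 14 macrophage markers passed the filter and had values above 0 (median log2 fold change 0.998). Of them 7 rose in the fit over all genes tested (limma), where 0.625% of all genes were called higher. In 12 of the 14 every deleted pool was above every control pool, against 9.2% of all genes tested. Their summed signal lay between 58604 and 67191 in deleted pools and between 25673 and 34354 in control pools. The scavenger receptor gene Marco rose (log2 2.26 ± 0.28, adjusted p = 0.0087), as did Mpeg1, a pore-forming protein gene of phagocytes (1.37 ± 0.18, adjusted p = 0.014), and Cd68, a lysosomal glycoprotein gene (3226 ± 42.5 in deleted pools and 1615 ± 80.7 in control pools, adjusted p = 0.0074). Of 6 general leukocyte markers 1 rose, Itgb2, the integrin beta 2 chain (1.29 ± 0.15, limma adjusted p = 0.0074), against the same 0.625% of all genes. The median of the 6 was 0.81. The part of leukocyte number in the differences of Cyba, Cybb, Ncf1, Ncf4 and Rac2 was not tested.

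Within the control group the phagocyte genes did not all follow the same pools. Control pool 3 had the highest summed leukocyte marker signal of the controls, at 41528 against 23199 and 27200 in control pools 1 and 2, and a Ptprc signal, the pan-leukocyte phosphatase CD45, of 14263 against 6521 and 6306. On their brightest probe sets Rac2 and Ncf4 read highest among controls in that same pool. So did the summed lymphocyte marker signal, at 12545 against 6551 and 6628 in control pools 1 and 2. The macrophage marker sum was highest in control pool 2 (34354), as were Cybb and Cyba. Ncf1 read highest in control pool 1 on its brightest probe set, where the leukocyte and macrophage marker sums were the lowest. In deleted pools the leukocyte marker sums were 58223, 46324 and 51798, and the brightest probe sets of Cybb, Ncf1, Ncf4 and Rac2 read highest in deleted pool 1, where that sum was highest. Cyba read lowest in that pool, and the dimmest probe sets of Cybb and Ncf1 read highest in deleted pool 3.

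Neutrophils carry the same oxidase. Of the 12 neutrophil markers listed, 5 passed the filter, 5 lay below it and 2 had no probe set named for them here. None passed the threshold (limma). At p under 0.05 before adjustment 2 were higher and 0 lower, against 6.05% and 6.02% of all genes tested. The calprotectin genes S100a8 and S100a9 had log2 fold changes of 1.01 ± 0.26 and 0.95 ± 0.29 (SE, adjusted p = 0.18 and 0.24). The remaining measured markers Ngp, Mmp9 and Ltf stood at 0.12, -0.06 and -0.17, and the list median was 0.12. Summed neutrophil signal lay between 10879 and 12544 in deleted pools and between 7794 and 12056 in control pools, which overlap. Among 9 lymphocyte markers none passed (limma, median 0.40), and before adjustment 2 were higher and 0 lower, against the same shares of all genes tested. The 2 with the smallest p were Ccr7, a chemokine receptor gene, at 1.27 ± 0.30 (SE, adjusted p = 0.14) and Nkg7 at 0.89 ± 0.35 (SE, adjusted p = 0.36). Values in the list ran from -0.65 (Cd8a) to 1.41 (Cd3d), with 8 above 0 and 1 below.

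Epithelial markers were measured beside Noxo1. None of 10 type II cell markers passed the threshold (limma, median log2 fold change 0.07). Before adjustment 1 was higher and 0 lower, against 6.05% and 6.02% of all genes tested. The 2 with the smallest p were the mucin gene Muc1 (0.54 ± 0.23, adjusted p = 0.40) and the transcription factor gene Etv5 (0.44 ± 0.22, adjusted p = 0.45). Muc1 read 33360.7, 35272.6 and 31971.4 in the deleted pools and 25822.4, 31385.7 and 14948.3 in the control pools. Etv5 read between 29427 and 32269 in deleted pools and between 15263 and 28320 in control pools. Both were lowest in control pool 3, as Noxo1 was, but not every type II marker was. Abca3, Lpcat1, Napsa, Sftpb and Sftpd were lowest in that pool too, whereas Sftpa1, Sftpc and Slc34a2 were not. Sftpc read highest in control pool 3, at 143129. Of the 7 type I cell markers none passed (limma, median 0.04, with 0 in either direction before adjustment), and Ager, the receptor gene that marks these cells, stood at 0.61 ± 0.29 (SE, adjusted p = 0.43) and Emp2 at 0.29 ± 0.21 (SE, adjusted p = 0.65). Airway markers all had values below 0 (8 measured, median -0.24, with summed signals of 330462 to 452767 in deleted pools and 373496 to 524788 in control pools), and Sox2, an airway transcription factor gene, fell (-0.83 ± 0.13, adjusted p = 0.030).

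The genes whose pool profiles were most like that of Noxo1 were found by the mean absolute difference between log2 signals, each taken relative to its own mean over the 6 pools. The 5 nearest among genes that are no members were Scd3 (0.54), Ccdc25 (0.56), Retnla (0.56), Slc26a4 (0.59) and Fgg (0.61). They include the stearoyl-CoA desaturase Scd3, the resistin-like Retnla, the anion exchanger pendrin (Slc26a4) and the fibrinogen gamma chain Fgg. Slc26a4 read 15658.5, 20651.8 and 14282 in the deleted pools and 818.1, 2317.2 and 957.9 in the control pools. Scd3 read 675.1, 842 and 568.8 in the deleted pools and 303.3, 225.9 and 63 in the control pools, and like Noxo1 it was lowest in control pool 3. Its log2 fold change was 2.08, and 1.39 without that pool. The others ranged from 2.15 (Retnla) to 3.77 (Slc26a4) and carry no test here, since likeness to Noxo1 selects genes that differ between the genotypes. Scd3 and Fgg averaged 197.4 and 248.9 in control pools, below the filter signal of 271, so dim signals limit their control levels.

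The profile of Cybb had nearer neighbours. The 5 nearest were Clec7a (0.08), Tnfrsf9 (0.09), Chil3 (0.10), Mpeg1 (0.11) and Atp6v0d2 (0.12), in the same measure over the same 6 pools. Clec7a encodes the beta-glucan receptor dectin-1 and read 7861, 6826 and 6830.7 in the deleted pools and 2558, 3399.6 and 2978.7 in the control pools. Tnfrsf9 is a TNF receptor family gene, Chil3 a chitinase-like protein gene of alternatively activated macrophages, and Atp6v0d2 a proton pump subunit gene. Their log2 fold changes ran from 1.04 (Atp6v0d2) to 1.37 (Tnfrsf9 and Mpeg1), given without a test because likeness to Cybb selected them. By this measure Cyba lay nearer to Ncf1 (0.20), Ncf4 (0.20) and Cybb (0.28) than to Noxo1 (1.22), whose changes are larger. Nox4, which ran the other way, also lay nearer to Cyba (0.55) than Noxo1 did. The measure follows the size of the changes and cannot assign Cyba to either oxidase system. These distances carry no test.

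Other genes of the oxidase pathway were taken from a list of 22. Of these 14 passed the filter, 3 lay below it and 5 had no probe set named for them here. None passed the threshold over all genes (limma), and before adjustment 2 were higher and 0 lower at p under 0.05, against 6.05% and 6.02% of all genes tested. Their median log2 fold change was 0.10, and 10 had values above 0. In 3 the groups did not overlap, all of them higher in deleted pools, which held for 9.2% of all genes tested.

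The 4 with the smallest p were kinases and adaptors of the cytosolic subunits. Prkcd, a protein kinase C that phosphorylates p47phox, read 6749.6, 5930.6 and 6567.1 in the deleted pools and 5181.3, 4897.4 and 4977 in the control pools (log2 0.35 ± 0.11, SE, adjusted p = 0.24). A dimmer Prkcd probe set gave 0.37. Arhgdib, the leukocyte inhibitor that keeps Rac GTPases in the cytosol, read 5366.7, 4421.9 and 5264.5 in the deleted pools and 2469.3, 2792 and 5087.9 in the control pools. Its log2 fold change was 0.61 ± 0.24 (SE, adjusted p = 0.36), and without control pool 3 it was 0.93 with an adjusted p of 0.012 by limma. Prkcb, another kinase of p47phox, stood at 0.56 ± 0.26 (SE, adjusted p = 0.43), and at 0.80 without control pool 3. Sh3pxd2a, which encodes the organizer-like adaptor TKS5, stood at 0.26 ± 0.13 (SE, adjusted p = 0.48), and at 0.14 without control pool 3. Arhgdib and Prkcb, like Rac2, read highest among controls in control pool 3.

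The remaining pathway genes had values between -0.28 and 0.33. Hvcn1, the proton channel that balances the charge moved by the phagocyte oxidase, stood at 0.33 ± 0.23. Cybc1, which encodes the chaperone Eros of the gp91phox and p22phox pair, stood at 0.27 ± 0.15, and Nrros, a negative regulator of gp91phox, at 0.08 ± 0.16. Rac1, the GTPase that serves NOX1 outside blood cells, had signals of 24301 to 26844 in deleted pools and 22439 to 28248 in control pools, and a log2 fold change of 0.05 ± 0.12. Poldip2, a partner of p22phox that activates NOX4, stood at 0.11 ± 0.14. The TKS4 gene Sh3pxd2b was the lowest, at -0.28 ± 0.21. All errors are standard errors.

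**Figure D3:**
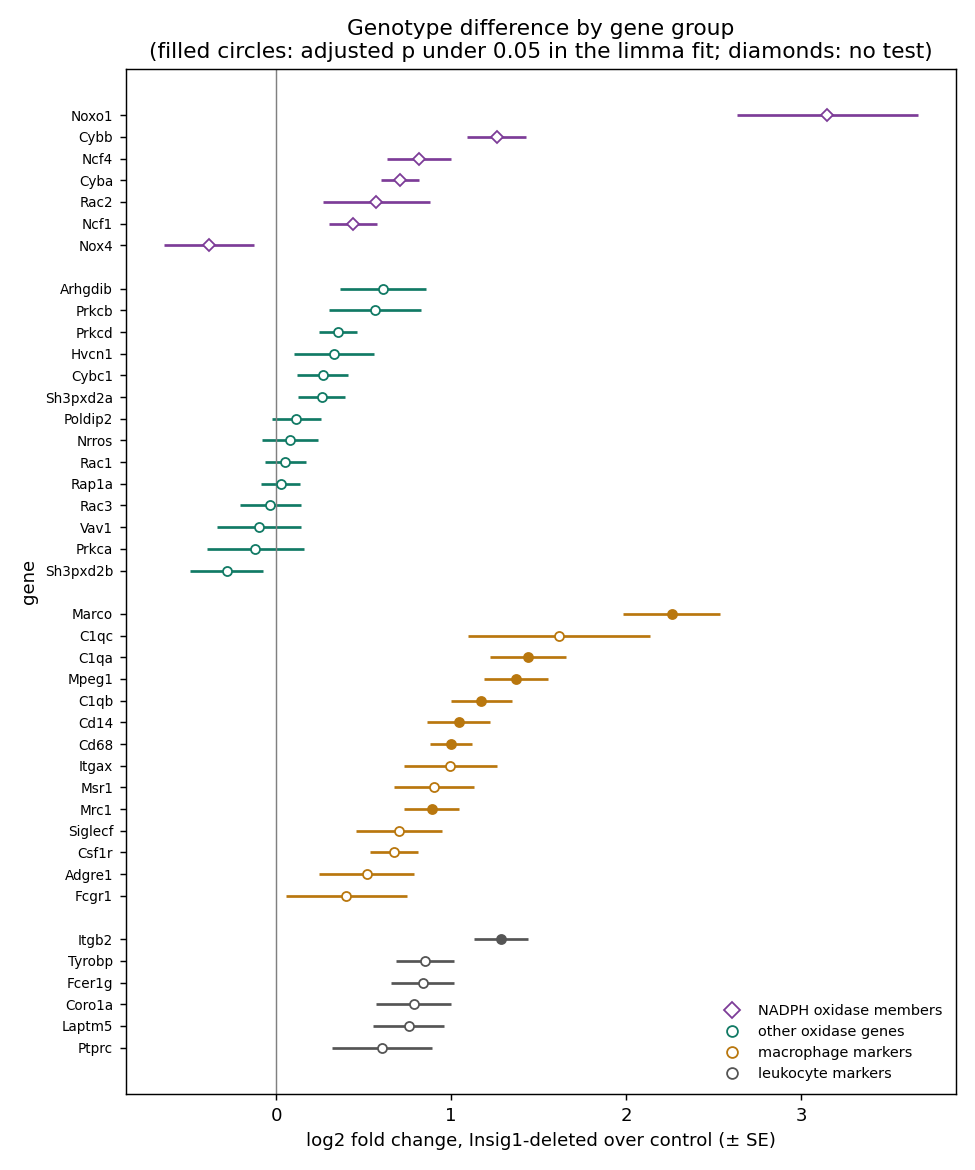
Log2 fold change (Insig1-deleted over control, ± SE) on the brightest probe set of the 7 oxidase members (diamonds, no test), 14 other oxidase genes, 14 macrophage markers and 6 leukocyte markers. Filled circles passed an adjusted p of 0.05 in the limma fit across 12952 genes: 7 macrophage markers and Itgb2 did, and no other oxidase gene did. Of all genes tested 0.649% passed in either direction.

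Enzymes that remove superoxide and peroxide, and enzymes that supply NADPH, were measured beside the oxidases. Of 8 listed superoxide and peroxide enzymes 4 passed the filter and none passed the threshold (limma, median log2 fold change -0.10). Before adjustment 1 was higher and 0 lower, against 6.05% and 6.02% of all genes tested. Sod2, the mitochondrial superoxide dismutase, stood at 0.28 ± 0.11 (SE, adjusted p = 0.37), and catalase (Cat) at -0.17 ± 0.15 (SE, adjusted p = 0.71). Of 7 NADPH supply genes 6 were measured and none passed (limma, median 0.11), with 1 higher and 0 lower before adjustment, against the same shares. Me1, malic enzyme, read 13125.2, 13128.4 and 11825.9 in the deleted pools and 9369.2, 10291.9 and 7885.6 in the control pools, a log2 fold change of 0.47 ± 0.12 (SE, adjusted p = 0.19). Pgd, of the pentose phosphate pathway, stood at 0.12 ± 0.15 (SE, adjusted p = 0.80).

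**Figure D4:**
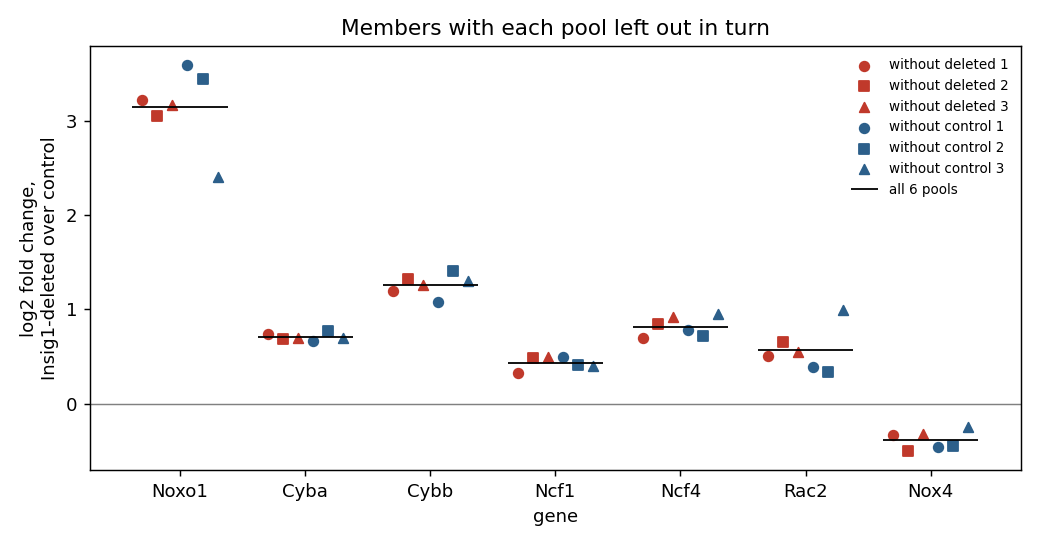
Log2 fold change (Insig1-deleted over control) of the 7 oxidase genes with all 6 pools (black line) and with each deleted pool (red) or control pool (blue) left out in turn. Every value keeps its sign; Noxo1 runs from 2.41 to 3.59, both ends set by a control pool, and Rac2 from 0.33 to 0.99.

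Leaving out each pool in turn changed the sizes most for Noxo1 and Rac2. Noxo1 ran from 2.41 without control pool 3 to 3.59 without control pool 1, and Rac2 from 0.33 without control pool 2 to 0.99 without control pool 3. Cybb stayed between 1.07 and 1.40, Cyba between 0.66 and 0.77, Ncf4 between 0.69 and 0.95, Ncf1 between 0.33 and 0.50 and Nox4 between -0.50 and -0.25. Without control pool 3 the median of the 14 macrophage markers was 0.98, and that of the 6 leukocyte markers, all of which then passed, was also 0.98.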

How the data were processed

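Total RNA of type II cell isolates was hybridised to Affymetrix arrays, 1 pool per array. Linear signal intensities, 1 per probe set, were deposited by the authors, who made them with MAS5 per the submitters' processing notes (no version named). In the deposited files the arrays share a mean near 1500 between the 2nd and 98th percentiles and differ in median by up to 0.17 (log2), so they were not normalized again. MAS5 treats each array alone and leaves dim probe sets noisy. Detection calls were not used here.

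Of 45101 probe sets, 34945 named 1 gene through the platform annotation, 932 several and 9160 none here. Promoter windows were RefSeq's, of build GRCm38.p6. The log2 scale was used, with 1 as the lowest signal. Probe sets with a mean log2 signal below the 40th percentile of non-control probe sets were left out, and the brightest remaining probe set stood for its gene (12952 genes). The genotype contrast was fitted in R 4.3.3 by limma 3.58.1 (lmFit, then eBayes with a trend on intensity). Tests were two-sided, adjusted over all genes by Benjamini-Hochberg, with a threshold of 0.05; "before adjustment" means an unadjusted p under 0.05. P-values measure the spread between pools, and the number of arrays limits the precision. An exact permutation test of 3 against 3 pools cannot go below 0.1 and was not used. The steps were tested on simulated data.

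The members and gene lists were chosen with earlier results of these data known. Named beyond the members were Insig1, Insig2, all other oxidase genes past the threshold or the 4 with the smallest p, up to 3 called genes or 2 uncalled genes of each other list, and the 5 genes nearest to Noxo1 and to Cybb. Hvcn1, Cybc1, Nrros, Rac1, Poldip2, Sh3pxd2b, Ptprc, Vav1 and the Duox genes were named after their values were seen. Alternatives were quantile normalization, a common median, log2 of the signal plus 16, no trend, array weights, other filters, a replicate block, each pool left out, the mean over probe sets and a threshold of 0.1. Figures used matplotlib 3.10.9.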

Additional observations from a re-analysis of the deposited data

How the results depend on the processing

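All 7 oxidase genes kept their direction in each of the 104 refits (15 per gene; 14 for Nox4, which the filter at the 60th percentile removed), and 103 of these values moved by less than the spread between pools. Ncf1 on the mean over probe sets (0.65) was the exception. How many genes passed depended on single pools: 84 over all genes, 15 to 477 with a pool left out, 29 with the trend left out, 259 with array weights and 129 at a threshold of 0.1. Of the oxidase genes 3 were past the threshold, 0 to 5 with a pool left out (0 without any 1 deleted pool, 5 without control pool 3) and 0 with the trend left out. On quantile normalization 2 were, Cyba and Cybb but not Noxo1, and with array weights 4 were. Without control pool 1 Cyba was lost, and 2 were past the threshold. The alternatives for this count were added after seeing the data. Of the other oxidase genes 0 passed, and 0 to 1 with a pool left out, the 1 being Arhgdib without control pool 3. Of the 14 macrophage markers 7 passed, but 0 without deleted pool 1 or 2, 2 without deleted pool 3, 3 without control pool 1 and 1 (Cd68) with the trend left out. Itgb2, the 1 leukocyte marker called, was lost without deleted pool 1 or 2 and with the trend left out, and 6 of 6 passed without control pool 3. Sox2 was lost without any 1 deleted pool and with the trend left out. Insig1 passed on a common median (adjusted p = 0.049) and with array weights (0.046). The cause was not tested. Sharing only a number, same-numbered pools had deviations correlated at 0.07, 0.04 and 0.15, and with the replicate block 132 genes passed. The block changed no count of oxidase genes but brought Insig1 past the threshold (adjusted p = 0.026). Dim signals limit Nox4 and the control levels of Noxo1, Scd3 and Fgg.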

Other observations

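The DUOX oxidases, which make hydrogen peroxide at the airway surface, were dim. Duox1 averaged 210.2 ± 44.2 in deleted pools and 149.0 ± 31.7 in control pools, its maturation factor gene Duoxa1 averaged 70.6 ± 5.13 in deleted pools and 78.0 ± 17.5 in control pools, and Duoxa2 averaged 217.7 ± 49.5 in deleted pools and 286 ± 103.5 in control pools (SD, n = 3 each). All 3 lay below the filter and their groups overlapped.

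Probe sets of the same pathway gene did not always give the same difference. Vav1, an exchange factor gene that activates Rac GTPases in blood cells, had a log2 difference of -0.10 on its brighter probe set, where the groups overlapped. On a probe set below the filter it stood at 0.70, at 304 ± 67.0 in deleted pools and 189 ± 46.7 in control pools, with no overlap. Sh3pxd2b had -0.28 and -0.55 on its probe sets, both with overlap.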
